A study of Mus musculus with 4 samples.

Results

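The genes described here make, store, clear and sense the catecholamines and histamine in the mouse brain. They are the synthetic enzymes Th (NM_009377), Ddc (NM_016672), Dbh (NM_138942) and Hdc (NM_008230), the transporters Slc6a3 (NM_010020) and Slc18a2 (NM_172523), the monoamine oxidases Maoa (NM_173740) and Maob (NM_172778), and the histamine receptor Hrh3 (NM_133849). These 9 genes were chosen by name, and every probe that is not a control and carries one of these symbols was taken. All 9 were found on the array, with 11 probes among 41174, and all 9 were among the 21426 genes tested. Of these 21426 entries 14329 had a gene symbol. The other 7097 were known only by the array's own name or accession, and are counted as genes in all shares given here. The brightest probe stood for a gene, and it was well above background on all 4 arrays in every member.

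Tissue holding the thalamus and the hypothalamus was taken at postnatal day 14 from dark-reared and from control mice, with 2 samples of each that the labels call biological replicates. Dams of the dark-reared mice were moved 1 to 4 days before birth into a cage covered with black plastic, and their young were tended under dim red light until sampling. Control mice lived in standard plastic cages with 12 h of light and 12 h of darkness a day. The strain, the sex and the number of animals behind a sample are not given in the labels. Total RNA of each sample was labelled with Cy3 and put on an Agilent one-colour array of its own. The comparison asks whether the absence of visual input changes expression in this tissue.

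Tyrosine hydroxylase makes L-DOPA from tyrosine and sets the pace of catecholamine synthesis, aromatic L-amino acid decarboxylase turns L-DOPA into dopamine, and dopamine beta-hydroxylase turns dopamine into noradrenaline. Histamine is made from histidine by histidine decarboxylase, in the brain mainly in neurons of the tuberomammillary nucleus in the posterior hypothalamus. Dopamine neurons lie in the midbrain and in smaller groups of the hypothalamus, and noradrenaline neurons lie in the brainstem and send fibres to the thalamus and the hypothalamus.

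Th was the member with the largest difference below 0 and Hdc the one with the largest above 0, so the 250 bases before their transcription starts are shown. Capitals mark matches to a cyclic AMP response element (TGACGTCA), an AP-1 motif (TGANTCA) and an SP1 box (GGGCGG), each sought on both strands. The sequences are RefSeq's for GRCm38.p6, read 5′ to 3′ on the strand of the gene, which is the minus strand for both. Th lies at chr7:142899996-142900245 and Hdc at chr2:126618679-126618928.
Th: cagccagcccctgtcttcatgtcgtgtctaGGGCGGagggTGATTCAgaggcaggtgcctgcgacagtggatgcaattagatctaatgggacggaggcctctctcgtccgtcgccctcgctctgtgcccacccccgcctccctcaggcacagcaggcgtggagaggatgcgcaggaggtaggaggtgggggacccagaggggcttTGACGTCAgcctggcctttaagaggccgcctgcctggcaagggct
Hdc: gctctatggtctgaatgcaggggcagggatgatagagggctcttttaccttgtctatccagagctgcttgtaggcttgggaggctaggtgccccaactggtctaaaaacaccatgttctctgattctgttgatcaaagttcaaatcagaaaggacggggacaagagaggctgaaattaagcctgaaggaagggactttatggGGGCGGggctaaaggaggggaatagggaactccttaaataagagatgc

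The cyclic AMP response element of Th began 45 bases before the start, its AP-1 motif 210 bases and its SP1 box 220 bases before it. Hdc held an SP1 box that began 48 bases before the start and neither of the other motifs. Of the 8 members with a promoter in the table, the cyclic AMP response element was in 1 (Th), the AP-1 motif in 2 (Th and Ddc) and the SP1 box in 6. The 8 members had 9 windows, Ddc having a second one that held no AP-1 motif. Members were counted by gene, and the shares that follow are by window. Over all 32851 promoter windows of that length the shares were 1.55%, 6.75% and 32.7%. These are matches of letters, and the arrays measured no binding.

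The samples differed in markers of brain regions, and in part across the groups. Values in the following are log2 of the processed signal after division by the array's own 75th percentile. Of 15 tested thalamic markers, 10 were lowest in dark-reared 1, and their mean deviation from the 4-array mean was -1.12 in dark-reared 1 and 0.43 in dark-reared 2, against 1.06 in control 1 and -0.37 in control 2. Among 13 tested hypothalamic markers it was -1.53 in dark-reared 1 and 0.45 in dark-reared 2, against 1.04 in control 1 and 0.03 in control 2. All 12 striatal markers ran the other way, higher in both dark-reared 1 and control 2 than in both other samples, with mean deviations of 0.83 in dark-reared 1 and -0.79 in dark-reared 2, against -0.67 in control 1 and 0.62 in control 2. The striatal order is that of the brightest probes, and the second probes of Penk and Pde10a shared it. A second probe of Adora2a did not, with 0.54 in dark-reared 1 and 1.48 in dark-reared 2, against 1.01 in control 1 and 1.72 in control 2. Tcf7l2, a transcription factor of thalamic neurons, had 0.85 in dark-reared 1 and 2.34 in dark-reared 2, against 2.93 in control 1 and 1.46 in control 2. Dark-reared 2 and control 2 shared a slide, the other samples had a slide each, and 65.9% to 73.3% of the probes were well above background on an array.

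None of the 9 genes passed the test of rearing condition. In limma, fitted over all 21426 genes, 0 of 9 members had a Benjamini-Hochberg adjusted p under 0.05, against 0% of all genes, and the lowest adjusted p among the members was 1.00. At an unadjusted p under 0.05 there were likewise 0 of 9, against 1.25% of all genes. The difference was below 0 in 6 members and above 0 in 3, with a median of -0.08, against -0.0065 over all genes tested. With 1 sample left out this median was -0.20 (dark-reared 1 omitted), -0.13 (dark-reared 2 omitted), -0.02 (control 1 omitted) or -0.27 (control 2 omitted), and within the slide that dark-reared 2 and control 2 shared it was 0.11, of the other sign. Not a single member was higher without overlap (9.54% of all genes were), and not a single one was at least 2-fold apart without overlap (1.2% of all genes were). In all 9 members the samples of 1 group lay further apart than the group means did, which held for 89.3% of all genes. For 1 gene taken alone, 0.333 is the smallest two-sided p that exact permutation of these 4 samples allows.

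**Figure D1:**
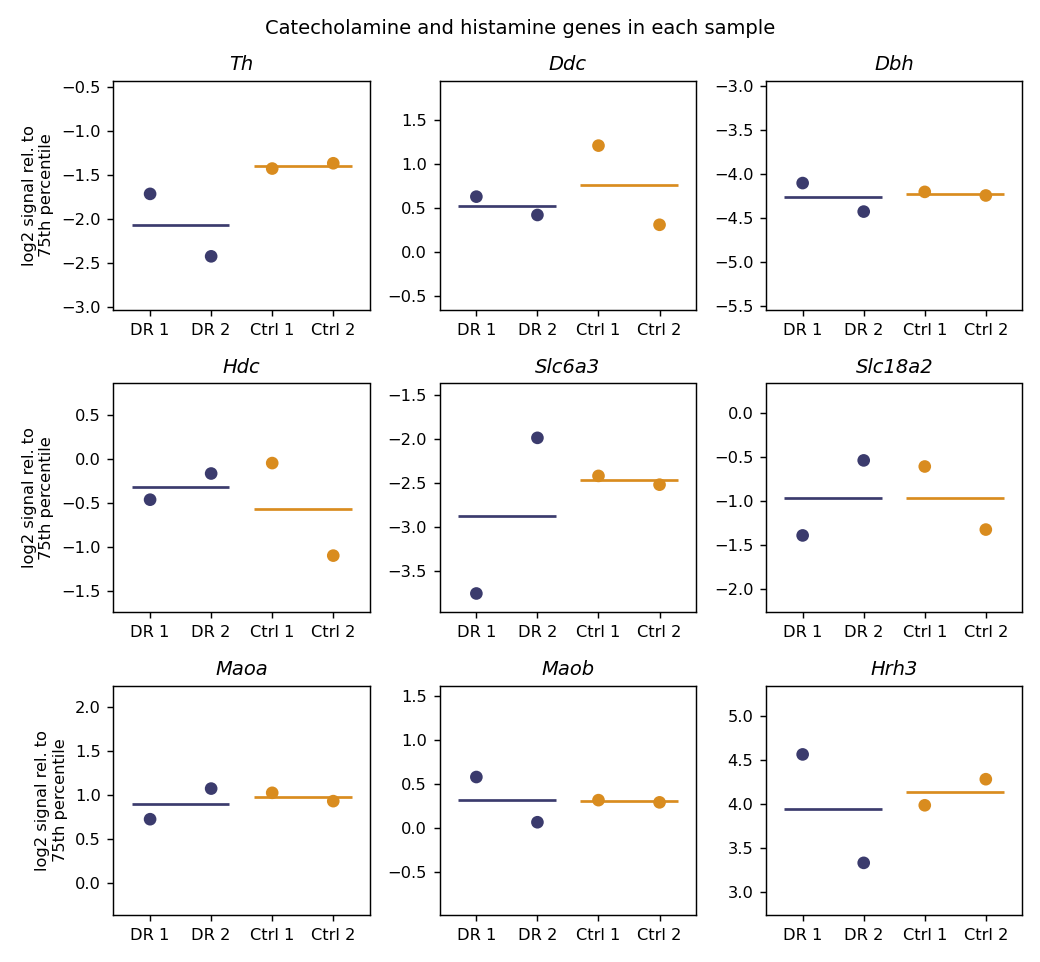
Log2 processed signal over the array's own 75th percentile, for each of the 9 genes in dark-reared (DR) 1 and 2 and control (Ctrl) 1 and 2; points are samples, lines are means of 2 samples, and each panel spans the same number of log2 units. Th is the only gene whose dark-reared samples both lie below both controls, and in 7 of 9 genes the dark-reared samples lie further apart than the controls.

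Th had log2 signals of -1.71 in dark-reared 1 and -2.42 in dark-reared 2, against -1.42 in control 1 and -1.36 in control 2. Both dark-reared samples were lower than both controls, with dark-reared 2 the farther below, while the controls nearly coincided. It was the only 1 of 9 members whose groups did not overlap, a share to be read against 19.1% of all genes, 9.58% on the lower side. The group means were -2.07 ± 0.50 in dark-reared and -1.39 ± 0.04 in control mice (SD, n = 2 each), a log2 difference of -0.67 (standard error 0.29 in limma, 95% interval -1.48 to 0.13). Its unadjusted p was 0.0809 and its adjusted p in limma 1.00, so the difference did not pass.

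The Th probe was spotted 10 times on each array, which shows how far its signal repeats within an array. The processed signal averaged 242 ± 12.2 over 10 spots in dark-reared 1 and 145 ± 6.92 over 8 spots in dark-reared 2, against 291 ± 15.3 over 10 spots in control 1 and 297 ± 16.5 over 10 spots in control 2 (SD over spots). The brightest spot of dark-reared 1, at 257, was dimmer than the dimmest of control 1, at 262. The SD between spots was at most 0.08 on the log2 scale, against a gap of 0.71 between the dark-reared samples and of 0.06 between the controls. Spots of an array are not samples, so they say how precise each value is and not how mice vary. The remaining 2 spots of dark-reared 2 were called outliers by the scanner software and left out.

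**Figure D2:**
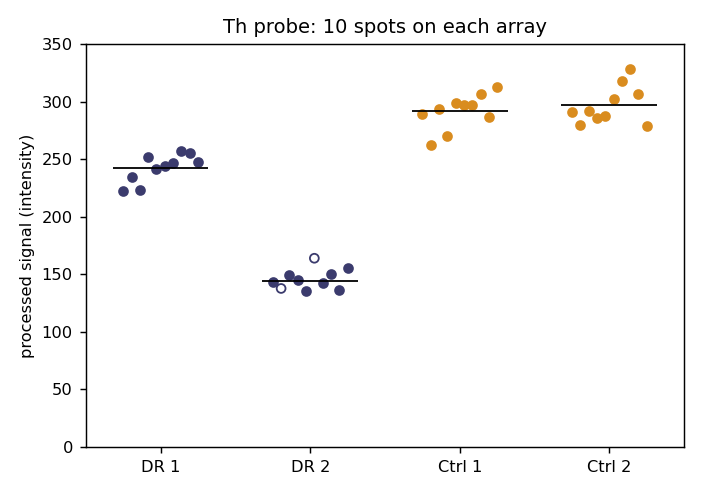
Processed signal of the 10 spots of the Th probe on each array, with the mean of the spots kept as a line and outlier spots as open circles. The spots of dark-reared 1 lie between 222 and 257 and those kept in dark-reared 2 between 135 and 155, below all spots of control 1 (262 to 313) and control 2 (279 to 328).

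The difference of Th was -1.03 without dark-reared 1 and -0.32 without dark-reared 2, and -1.06 within the shared slide. Of the transcription factors that mark midbrain dopamine neurons, Pitx3 had log2 signals of -3.64 in dark-reared 1 and -4.08 in dark-reared 2, against -3.09 in control 1 and -3.07 in control 2. Nr4a2, which is needed for dopamine neurons and is found in other neurons too, had -0.67 in dark-reared 1 and -0.51 in dark-reared 2, against -0.10 in control 1 and 0.82 in control 2. Both were thus lower in both dark-reared samples, as Th was, and neither passed (adjusted p = 1.00 in limma, unadjusted p 0.0202 for Pitx3 and 0.0591 for Nr4a2). Nr4a2 also marks the habenula, whose other tested marker, Pou4f1, likewise had its dark-reared values below its control values (difference -0.23), and the other 4 of 6 habenular markers were not tested. The dopamine transporter gene Slc6a3 was highest in dark-reared 2, the sample in which Th was lowest. Of the 9 genes on the midbrain list 5 were tested, 4 lower and 1 higher, while the other 4 were well above background on both arrays of neither group. Thus 2 of 5 were lower without overlap, as were both tested habenular markers, where 9.58% of all genes were. Pitx3 was dim, with processed signals of 63.5 in dark-reared 1 and 45.6 in dark-reared 2, against 92.0 in control 1 and 91.2 in control 2. The lowest signals counted as well above background were 22.3, 23.3, 21.3 and 35.0 in the same order. Apart from Pitx3 and Nr4a2, the tested midbrain genes had overlapping groups, with differences of -0.31 for En2, -0.21 for Aldh1a1 and 0.04 for Foxa1. The summed level of the tested genes, made up largely of Aldh1a1 and Nr4a2, was 4.24 in dark-reared 1 and 2.74 in dark-reared 2, against 5.01 in control 1 and 4.23 in control 2. The part of these cells in the difference of Th was not tested, and in such bulk tissue fewer cells of a type and less RNA per cell cannot be told apart.

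Ddc, the decarboxylase shared by the dopamine and serotonin pathways, had log2 signals of 0.63 in dark-reared 1 and 0.42 in dark-reared 2, against 1.21 in control 1 and 0.31 in control 2. Control 1 stood high, and the other 3 samples lay close together. The difference was -0.23 (limma standard error 0.36, adjusted p = 1.00), and it was 0.22 without control 1. A second, dimmer probe of Ddc gave -2.59 in dark-reared 1 and -2.70 in dark-reared 2, against -1.82 in control 1 and -2.54 in control 2, so that both probes had control 1 highest. On the second probe both dark-reared samples were below both controls, at a difference of -0.46.

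Dbh had log2 signals of -4.10 in dark-reared 1 and -4.43 in dark-reared 2, against -4.20 in control 1 and -4.25 in control 2. Its processed signal was 46.1 in dark-reared 1 and 35.9 in dark-reared 2, against 42.4 in control 1 and 40.3 in control 2, near the lowest signals counted as well above background on these arrays (22.3, 23.3, 21.3 and 35.0 in the same order). The difference was -0.04 (limma standard error 0.18, 95% interval -0.54 to 0.46). It was -0.66 with normexp background correction of the median signals. Phox2a, which helps specify noradrenaline neurons, and Slc6a2, their noradrenaline transporter, were well above background on 0 of 4 arrays. Of 5 markers of noradrenaline neurons 1 was tested, Tfap2b, which was well above background on all 4 arrays. Its difference was -0.03, with overlapping groups.

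Hdc had log2 signals of -0.46 in dark-reared 1 and -0.16 in dark-reared 2, against -0.04 in control 1 and -1.10 in control 2. Control 2 stood below the rest, while control 1 was the highest of all, so the groups overlapped. The means were -0.31 ± 0.21 in dark-reared and -0.57 ± 0.74 in control mice (SD, n = 2 each), a difference of 0.26 (limma standard error 0.41, adjusted p = 1.00). Without control 2 the difference was -0.27, without control 1 it was 0.78, and within the shared slide it was 0.93. Mast cells also make histamine: of 8 mast cell markers 3 were tested, and the protease gene Cpa3 was well above background on 0 of 4 arrays. The summed level of these 3 was 0.22 in dark-reared 1 and 0.19 in dark-reared 2, against 0.21 in control 1 and 0.25 in control 2. These dim markers differed among themselves, Cma1 being highest in control 2, Tpsb2 in dark-reared 1 and Fcer1a in dark-reared 2. The part of mast cells in the values of Hdc was not tested.

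Among all other named genes, those whose values followed Hdc most closely over the 4 arrays were Sntn, Cfap52 and Mlf1. Each gene was centred on its own mean, and the root mean square difference from Hdc was 0.02, 0.03 and 0.03 on the log2 scale. Sntn and Cfap52 encode proteins of motile cilia. Such closeness over 4 arrays was shared by many genes, 101 of 14327 lying within 0.15 of Hdc. Sntn was dim, being well above background on 3 of the arrays. A list of genes of the ependyma, the ciliated lining of the ventricles, was added after these values were seen. All 11 of its tested members were lowest in control 2, as Hdc was, a place that 17.5% of all genes had. Their summed level was 10.3 in dark-reared 1 and 12.9 in dark-reared 2, against 14.8 in control 1 and 6.60 in control 2. The part of the ependyma in the values of Hdc was not tested.

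Slc6a3, the dopamine transporter that returns dopamine to the nerve ending, spread more over the arrays than any other member. Its log2 signals were -3.76 in dark-reared 1 and -1.99 in dark-reared 2, against -2.42 in control 1 and -2.52 in control 2. The dark-reared samples lay on either side of the controls, which were 0.10 apart. The difference was -0.40 (limma standard error 0.64, 95% interval -2.20 to 1.40, adjusted p = 1.00). It was 0.48 without dark-reared 1, -1.29 without dark-reared 2, and 0.53 within the shared slide. Dark-reared 1 was also the sample in which thalamic and hypothalamic markers were low.

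Slc18a2, the vesicular transporter that loads monoamines into synaptic vesicles, was split across the groups. Its log2 signals were -1.39 in dark-reared 1 and -0.53 in dark-reared 2, against -0.60 in control 1 and -1.32 in control 2. The means were -0.96 ± 0.60 in dark-reared and -0.96 ± 0.51 in control mice (SD, n = 2 each), differing by 0.0013 (limma standard error 0.42, 95% interval -1.17 to 1.17). Its second probe gave -2.20 in dark-reared 1 and -1.81 in dark-reared 2, against -1.46 in control 1 and -2.16 in control 2. Both probes had the samples dark-reared 2 and control 1 above the rest, and the second put the group difference at -0.20. Within the shared slide the brighter probe differed by 0.79 and the other by 0.34. Slc6a4, the serotonin transporter, whose neurons also use Slc18a2, was well above background on 0 of 4 arrays. Of 4 markers of serotonin neurons 2 were tested, Fev and Htr1a, with differences of -0.53 and 0.12. Fev was well above background on all 4 arrays, and Htr1a on 1 of the 2 dark-reared arrays and both control arrays.

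Monoamine oxidases A and B sit on the outer mitochondrial membrane and break down monoamines, type B being abundant in astrocytes. Maoa had log2 signals of 0.73 in dark-reared 1 and 1.08 in dark-reared 2, against 1.03 in control 1 and 0.93 in control 2. Its difference was -0.08 (limma standard error 0.19, 95% interval -0.60 to 0.45). Maob had 0.58 in dark-reared 1 and 0.06 in dark-reared 2, against 0.31 in control 1 and 0.29 in control 2. Its difference was 0.02 (limma standard error 0.23, 95% interval -0.62 to 0.66). Thus dark-reared 1 was the lowest for one oxidase and the highest for the other, while the controls lay 0.09 apart for Maoa and 0.02 apart for Maob. Without dark-reared 1 the difference was 0.10 for Maoa and -0.24 for Maob.

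Both oxidase genes lie on the X chromosome, and the samples differed in Xist, the RNA of the silenced X, which was picked with its values known. The brightest Xist probe had 3.42 in dark-reared 1 and -5.81 in dark-reared 2, against 3.79 in control 1 and -6.48 in control 2. The brighter probe of Ddx3y, a gene of the Y chromosome likewise picked with its values known, had -0.32 in dark-reared 1 and 1.07 in dark-reared 2, against -6.54 in control 1 and 1.18 in control 2, and was well above background in all but control 1. Dark-reared 1 thus had signal of both genes, and no other sample did. The part of sex in the values of Maoa and Maob was not tested. Of 7 astrocyte markers all were tested, with mean deviations of -0.05 in dark-reared 1 and 0.06 in dark-reared 2, against 0.09 in control 1 and -0.10 in control 2. Of these markers 5 had a difference above 0 and 2 below it, and their part in the values of Maob was not tested.

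Hrh3 encodes the histamine H3 receptor, which lowers histamine release as an autoreceptor of histamine neurons and is also made by other neurons, those of the striatum among them. Its log2 signals were 4.56 in dark-reared 1 and 3.33 in dark-reared 2, against 3.98 in control 1 and 4.28 in control 2. The dark-reared samples were the highest and the lowest, with both controls between them. The means were 3.95 ± 0.87 in dark-reared and 4.13 ± 0.21 in control mice (SD, n = 2 each), a difference of -0.19 (limma standard error 0.47, 95% interval -1.50 to 1.13, adjusted p = 1.00). It was -0.80 without dark-reared 1, 0.43 without dark-reared 2 and -0.95 within the shared slide.

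The order of Hrh3 placed dark-reared 1 and control 2 above the other samples, as all 12 striatal markers did by their brightest probes. It was the order of 25.3% of all genes. The summed level of those 12 markers was 393 in dark-reared 1 and 129 in dark-reared 2, against 149 in control 1 and 356 in control 2. The dopamine receptor genes Drd1 and Drd2 are among them. Genes closest to Hrh3 over the arrays were Klhl2 (root mean square difference 0.02), Ppp1r16b (0.05) and Sema7a (0.06), and 111 of 14327 lay within 0.15. The part of striatal tissue in the values of Hrh3 was not tested.

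The opposite order, with dark-reared 2 and control 1 above both other samples, was found in 4 members, namely Hdc, Slc6a3, Slc18a2 and Maoa. It was found in 23.2% of all genes, in 10 of 15 thalamic markers, in 7 of 13 hypothalamic markers and in 10 of 11 ependymal genes. With Hrh3, 5 of the 9 members had one or the other of these orders, near the 48.5% of all genes that did. Region markers move with this split, and their part in the members' values was not tested.

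**Figure D3:**
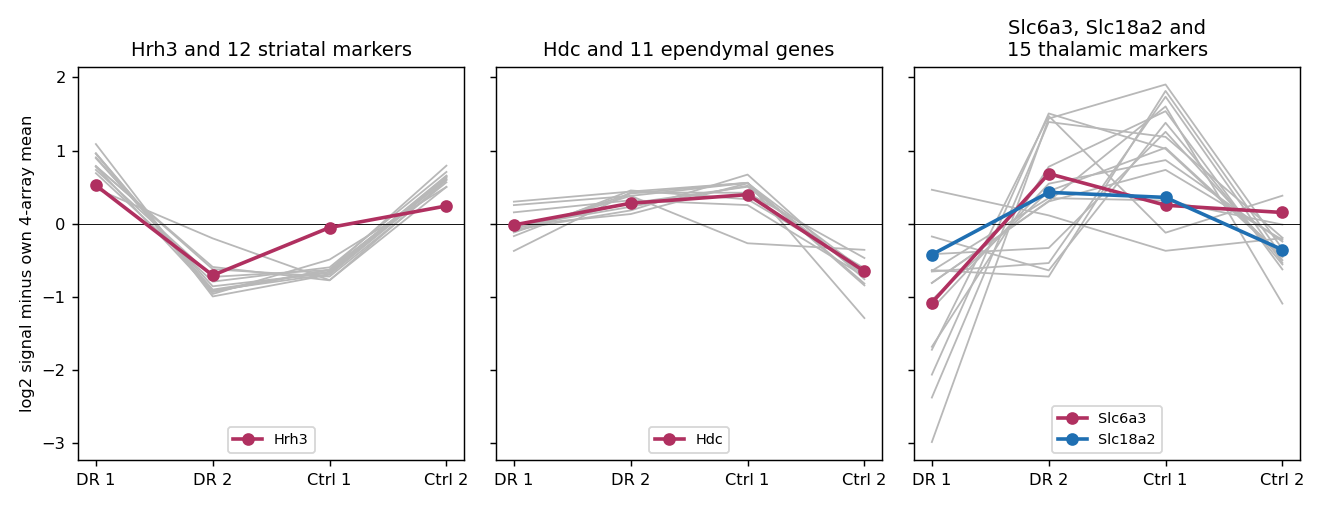
Log2 signal of each gene minus its own mean over the 4 arrays, for dark-reared (DR) 1 and 2 and control (Ctrl) 1 and 2; coloured lines are members, grey lines are the tested markers of striatum (left), ependyma (middle, a list added with values known) and thalamus (right), and lines only join the values of a gene. Hrh3 and the striatal markers are high in dark-reared 1 and control 2, and Hdc and the ependymal genes are lowest in control 2. Slc18a2 and most thalamic markers are high in dark-reared 2 and control 1. Slc6a3 is lowest in dark-reared 1 and highest in dark-reared 2, with its controls 0.10 apart.

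Genes whose 4 values most resembled those of Th were Tmem108 (root mean square difference 0.07), Ifnz (0.07) and Cyp4a10 (0.08). Tmem108 had log2 signals of -1.41 in dark-reared 1 and -2.10 in dark-reared 2, against -1.10 in control 1 and -1.20 in control 2, and 38 of 14327 genes lay within 0.15 of Th. For Slc6a3 they were Dhrs2 (0.04), Mrgpre (0.05) and Mirt1 (0.06), with 25 genes within 0.15. Such genes were sought for the 4 members whose values spanned at least 1 log2 unit, a bound lowered from 2 once it was seen that 0 members reached it.

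Within the shared slide, where dark-reared 2 and control 2 were hybridised side by side, 5 members were higher and 4 lower in the dark-reared sample. The sign differed from that of the group difference in 4 members (Ddc, Slc6a3, Maoa and Maob). For Ddc this held on the brighter probe only. Its second probe had -0.16 within the slide, of the same sign as its group difference of -0.46. The widest within-slide differences were -1.06 for Th, -0.95 for Hrh3, 0.93 for Hdc and 0.79 for Slc18a2. These have 1 sample a group and no test.

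**Figure D4:**
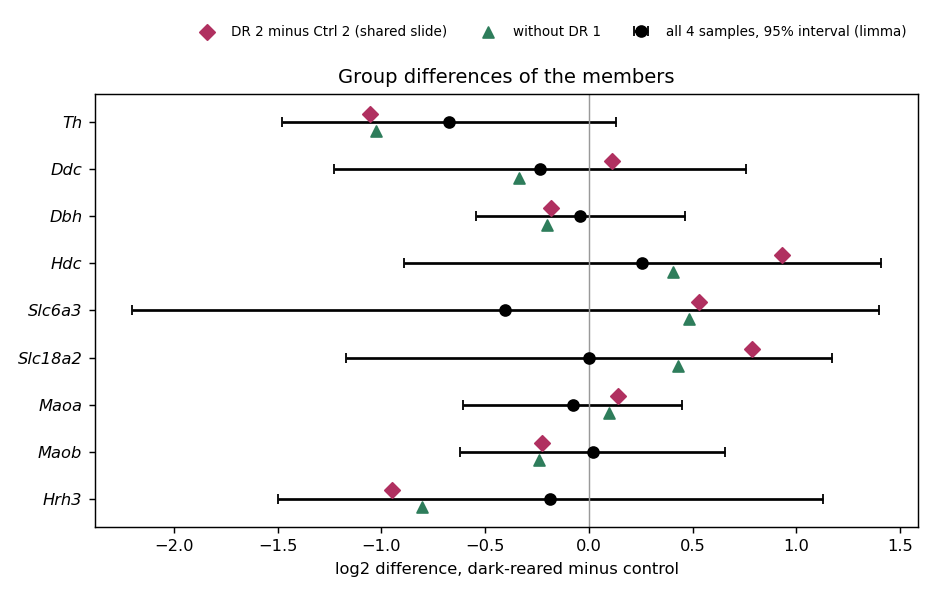
Log2 difference, dark-reared minus control, of each member: black points with bars are the fit over all 4 samples with its 95% interval from limma, diamonds are dark-reared 2 minus control 2 within the shared slide, and triangles are the difference without dark-reared 1. All 9 intervals include 0. Th, Dbh and Hrh3 lie below 0 and Hdc and Slc18a2 above 0 in every form drawn. The signs of Ddc, Slc6a3, Maoa and Maob differ between forms. The forms drawn could not turn the sign of Th, whose groups do not overlap. Among forms not drawn, Dbh was 0.12 and Hrh3 0.43 without dark-reared 2, and Hdc was -0.27 without control 2. Slc18a2 was -0.42 without dark-reared 2 and -0.36 without control 2.

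Other genes of these pathways did not pass either. Of 16 genes for the cofactor of the hydroxylases, for methylation and for further transport and breakdown, 12 were tested. In dark-reared mice 6 of them were higher and 6 lower, their median difference was -0.0079, and 0 passed the adjusted threshold. The sign of this median was not settled, as it was 0.08 without dark-reared 2, 0.06 without control 1 and 0.04 within the shared slide. Pcbd1, which regenerates the tetrahydrobiopterin cofactor, had the widest difference, with log2 signals of 0.33 in dark-reared 1 and 2.12 in dark-reared 2, against 2.66 in control 1 and 1.23 in control 2. Its difference was -0.72 (standard error 0.83), and within the shared slide it was 0.89, of the other sign. Gchfr, the feedback regulator of cofactor synthesis, differed by 0.26 (standard error 0.68). The transporter Slc29a4 differed by 0.20 (standard error 0.26) and the histamine methylating enzyme Hnmt by 0.14 (standard error 0.16). Hnmt, which inactivates histamine in the brain, had 0.48 in dark-reared 1 and 0.60 in dark-reared 2, against 0.30 in control 1 and 0.50 in control 2.

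Of 17 receptor genes for dopamine, adrenaline and histamine 13 were tested. In dark-reared mice 4 of them were higher and 9 lower, their median difference was -0.12, and 0 passed the adjusted threshold. It became -0.23 with dark-reared 1 omitted, -0.16 with dark-reared 2 omitted, -0.24 with control 1 omitted, -0.39 with control 2 omitted and -0.55 within the shared slide. Adra2b, an alpha-2 adrenergic receptor, was well above background on 0 of the 2 dark-reared arrays and on both control arrays. Its log2 signals were -7.20 in dark-reared 1 and -6.47 in dark-reared 2, against -4.32 in control 1 and -4.24 in control 2. With the dark-reared values raised to the lowest signal well above background on their arrays, it was 1.77-fold lower in dark-reared mice. That lowest signal belongs to the dimmest probe counted on an array, so this figure is not a strict bound. The controls were dim too, with processed signals of 39.1 in control 1 and 40.4 in control 2, against lowest such signals of 21.3 and 35.0. Adra2b was kept through the control arrays alone, so its place among the lower genes gives no support. Adra1d, an alpha-1 adrenergic receptor, had -2.14 in dark-reared 1 and -3.51 in dark-reared 2, against -2.05 in control 1 and -1.91 in control 2. Drd4, Drd5 and Adra1a differed by -0.43, -0.38 and -0.27, each with overlapping groups. A second, dimmer probe of Drd5 went the other way, at 0.76, and was well above background on both dark-reared arrays and on neither control array.

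**Figure D5:**
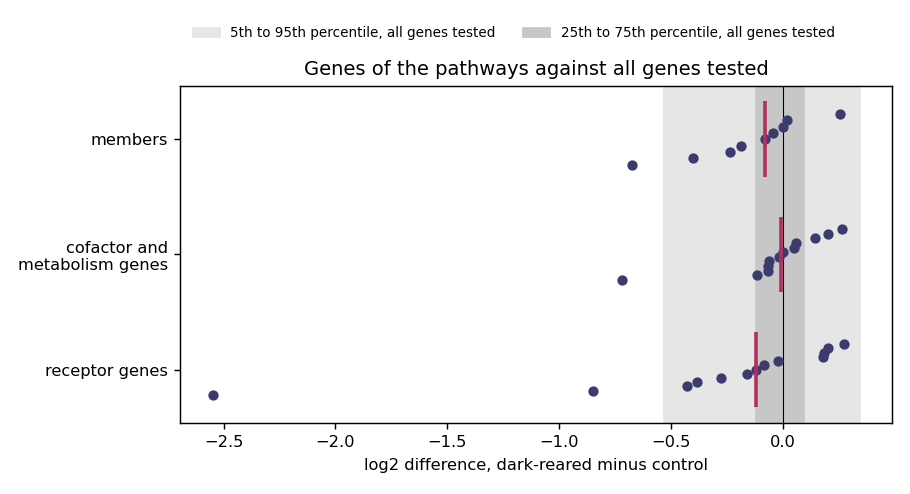
Log2 difference, dark-reared minus control, of each tested gene (points) in the 9 members, the 12 cofactor and metabolism genes and the 13 receptor genes, with the median of a list as a vertical line; grey bands hold the middle of all 21426 genes, from -0.53 to 0.35 (5th to 95th percentile) and from -0.12 to 0.10 (25th to 75th). Outside the wider band lie Th, Pcbd1, Adra1d and Adra2b, the point of Adra2b being its fitted value and no bound.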

How the data were processed

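Spot intensities were deposited as Agilent Feature Extraction output, with the software named as 10.7.3.1 per the file headers and as 10.7 in the submitters' processing notes. Its processed intensity is background-subtracted and detrended within an array and not scaled between arrays. A value table that the authors deposited gives log2 values, with a median of 6.84 on every array, made by a method not given in the sources used here and used only as an alternative. Of 45018 spots per array, outlier spots (79 to 103) were left out, the spots of a probe averaged, and each array's 75th percentile (764 to 794) subtracted in log2. Probes were named through their RefSeq accessions (26918 probes, 18350 symbols; assembly GRCm38.p6 used for names) and the array annotation refers to mm9, per the file headers. A probe was kept if both arrays of either group had it well above background (28444), and the brightest stood for a gene. Rearing conditions were tested in R 4.3.3 by limma 3.58.1 (lmFit and eBayes, two-sided), with Benjamini-Hochberg adjustment across the genes and a threshold of 0.05. The p-values measure the spread between these samples only, as nothing says how many animals a sample holds. The fit was tested on simulated data with 200 changed genes. It recovered 0 of them at a log2 change of 1, 87 at a change of 2 and 133 at a change of 3.

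The members and gene lists were chosen with earlier results of these data known. Named genes are all members, the 5 widest differences of each pathway list, genes resembling a member, and defining markers, of which 2 are not reported here. Slc6a2, Tfap2b, Fev, Htr1a, Xist, Ddx3y, Pou4f1, the other midbrain and mast cell markers and the ependymal list were named or added after values were seen. Alternatives covered scaling, background, filter, outlier spots, choice of probe, variance model, a block for replicate number or slide, and leaving out each array. No spot was saturated, and 4 arrays limit the precision.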

Additional observations from a re-analysis of the deposited data

How the results depend on the processing

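No member passed in any of the alternatives that gave a test, and 0 of all genes passed in each of them. The lowest adjusted p of a member was 0.547 in limma, for Th without dark-reared 1. In such fits with an array left out, the lone sample of a group is assumed to vary like the other group. Th kept its sign in all 16, from -1.06 to -0.32, but many of them could not turn it. The filters, the mean of probes, the variance model and the replicate block left its difference at -0.67. As both dark-reared values of Th lay below both controls, leaving out an array or taking the shared slide also had to keep the sign. The sign turned for Dbh with quantile normalization (0.023) and the deposited log2 values (0.024), for Slc18a2 with normexp (-0.23), normexp with replaced backgrounds (-0.051), the mean of its probes (-0.10) and its second probe (-0.20), for Maoa with both kinds of normexp (0.082 and 0.0057), and for Hrh3 with normexp (0.045), which alone moved the median of all genes by over 0.1, to -0.12. Within the shared slide the sign turned for Ddc (0.11, on its brighter probe only), Slc6a3 (0.53), Maoa (0.14) and Maob (-0.23). With each array left out the ranges were -1.03 to -0.32 for Th, -0.68 to 0.22 for Ddc, -0.20 to 0.12 for Dbh, -0.27 to 0.78 for Hdc, -1.29 to 0.48 for Slc6a3, -0.42 to 0.43 for Slc18a2, -0.25 to 0.10 for Maoa, -0.24 to 0.28 for Maob and -0.80 to 0.43 for Hrh3. The 257 genes at least 2-fold apart without overlap became 151 with normexp, 23 with replaced backgrounds, 810 without the filter on dim probes, 78 with the filter on all 4 arrays, 892 to 1211 with an array left out, and 1363 at least 2-fold apart within the shared slide. These causes were not tested, apart from the numbers of probes and samples that the filters and omissions change.

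The replicate number as a block left 0 genes past the threshold and the differences as they were, since each number occurs once in a group (Th -0.67; 271 genes at an unadjusted p under 0.05, against 267 without it). Deviations from the group means of same-numbered samples correlated at -0.16 across genes, and the crossed pairing, added after this was seen, also gave 0 genes (433 at an unadjusted p under 0.05).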

Other observations

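Choroid plexus genes, which mark the tissue that makes cerebrospinal fluid, had their lowest value in control 2 in all 5 tested of 6, as Hdc did. Their mean deviation from the 4-array mean was 0.89 in dark-reared 1 and 0.29 in dark-reared 2, against 0.77 in control 1 and -1.94 in control 2. Tph2, the enzyme that begins serotonin synthesis in brainstem neurons, was well above background in dark-reared 1 and control 2 and in neither other sample. Its log2 signals were -3.82 in dark-reared 1 and -5.57 in dark-reared 2, against -5.19 in control 1 and -4.42 in control 2.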
